A study of Mus musculus with 8 samples.

Results

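The genes described here are the cyclins, the cyclin-dependent kinases (CDKs), the CDK inhibitors and other Cdkn genes, the genes named Cdc and the E2f transcription factors. They were taken by symbol from the mouse RefSeq annotation, as every autosomal gene with a curated mRNA whose symbol is Ccn with a letter from a to t or y and then a number or nothing more, or starts with Cdk and a digit, Cdkn, Cdc and a digit, or E2f. This gave 99 genes of 20021 on chromosomes 1 to 19. A symbol rule also takes in genes that share only a historical name, so the 99 genes were placed in 14 roles by what their products are known to do.

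ATAC-seq, an assay of open chromatin, was applied to brown adipose tissue (BAT) of mice that were 12 weeks old, fed chow and kept for 4 hr at 4°C. WT animals carried the floxed Dot1l alleles without Cre, and Dot1l-BKO animals carried the same floxed alleles with Ucp1-Cre, which acts in cells that turn on Ucp1, so that other cells of the tissue kept Dot1l. Each genotype gave 2 ATAC-seq libraries, and the 4 libraries are named together in 1 list of 32173 peak summits, each a position with a score that is the −log10 of the q-value from MACS2. The list's name sets WT against Dot1l-BKO, and whether the Dot1l-BKO reads were pooled with the WT reads or served as the control of the calling is not given in the sources used here. The paper describes a union set of regions built from MACS2 peaks of the single samples, without saying how this list was called. If Dot1l-BKO was the control, a summit would mark signal in WT over Dot1l-BKO and not open chromatin in both. Each summit and score below is therefore a listed position, whichever of these it marks. The list has no values per library, so read depth is unknown, no value below has a replicate error, and WT and Dot1l-BKO were not compared.

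Cyclins are the regulatory subunits of CDKs, and a CDK has little kinase activity until a cyclin binds it. Cell cycle cyclins and CDKs drive entry into S phase and mitosis through phosphorylation of the retinoblastoma family, which otherwise holds E2F factors in check, while CDK inhibitors of the Cip/Kip and INK4 families block these kinases. Other cyclins and CDKs act in transcription, where they phosphorylate RNA polymerase II or the Mediator complex. Mature brown adipocytes seldom divide, and cold exposure is known to induce division of progenitors in BAT.

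All 9 brown adipocyte markers, which include Ucp1 and Cidea and also genes of fat cells in general such as Adipoq, Fabp4, Plin1 and Pparg, had a summit within 1 kb of a transcription start site (TSS), with a median score of 20.8. Over all autosomal genes, the share with such a summit was 46.8%. A summit at the promoter was listed for 1 of 3 endothelial markers (Cdh5, score 2.59), 1 of 3 progenitor markers (Pdgfra, 4.16) and 0 of 3 macrophage markers (Ptprc, Csf1r and Adgre1). The hepatocyte gene Alb and the neuronal gene Rbfox3 had none, nor did Mki67 and Top2a, which mark dividing cells. A position without a summit is one that did not pass the peak caller's thresholds, which does not show that the chromatin there was closed.

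Most of the 99 genes had a summit at their promoter. A summit lay within 1 kb of a TSS at 80 of them (80.8%), against 46.8% of all autosomal genes. A summit lay within 5 kb at 84 (84.8%), against 51.8%, and within 50 kb at 95 (96.0%), against 73.0%. In the gene body, 57 (57.6%) had a summit, against 41.2%. Of these 57, 29 had one there beyond 1 kb of a TSS, and the others rested on summits already counted at the promoter. This split was not made over all genes, so 29 has no share to be set beside. With a score of at least 10, the gene body count was 18 (18.2%), against 14.3%. Promoter summits with a score of at least 10 were found at 48 genes (48.5%), against 24.5%. The median gene had 3 summits within 50 kb, against 2 over all genes.

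**Figure D1:**
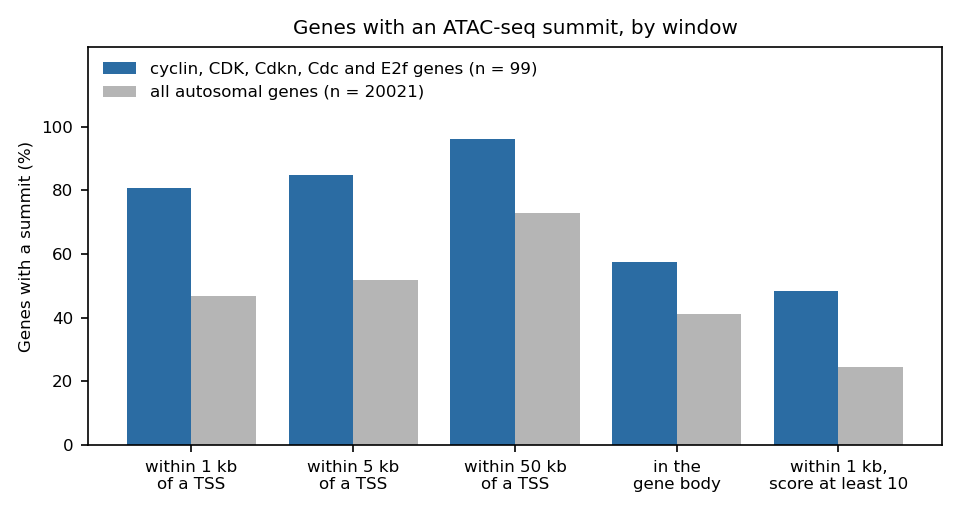
Share of genes (%, vertical axis) with at least 1 summit in each window, for the 99 cyclin, CDK, Cdkn, Cdc and E2f genes (blue) and for all 20021 autosomal genes (grey). Blue bars stand above grey bars in every window, at 80.8% against 46.8% within 1 kb of a TSS and at 96.0% against 73.0% within 50 kb.

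Where a promoter summit was present, its score was similar to that over all genes. Strong and weak refer here to this score, which is a significance and not an amount of signal. The highest score within 1 kb had a median of 11.5 over the 80 genes, with quartiles of 7.36 and 21.6, and a median of 10.9 over the 9371 autosomal genes with such a summit, with quartiles of 5.68 and 20.9. Scores ran from 1.83 at Cdk5r1, which encodes an activator of CDK5, to 73.6 at Cdkn2d, which encodes an INK4 inhibitor. The list held 2606 distinct scores, and 1942 summits shared the score of 4.16, so equal scores at several genes below are ties of the caller's scale.

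Promoter summits lay somewhat farther from the start sites than over all genes, within the 1 kb window that bounds the distance. Of 101 summits within 1 kb of a TSS of these genes, 58 (57.4%) were upstream of it, against 54.4% over all genes. The other 43 were at or downstream of it. Within 100 bp lay 29 (28.7%), against 33.0% over all genes. The median distance of the 101 summits was 222 bp, against 174 bp. A single promoter summit was found at 62 genes, 2 at 15 genes and 3 at 3 genes (Ccnd3, Cdc25a and Cdc42bpg). The strongest promoter summit lay upstream of the gene at 44 genes, in a 5′ UTR exon at 16, in an intron at 15 and in a coding exon at 5. Promoter summits per gene and their place in the gene were not counted over all genes. At 8 of the 80 genes (10%) it was also within 1 kb of the TSS of another gene, against 19.3% over all genes. These were Ccni, Ccnk, Cdc123, Cdc26, Cdc27, Cdc40, Cdc42se1 and Cdc45.

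**Figure D2:**
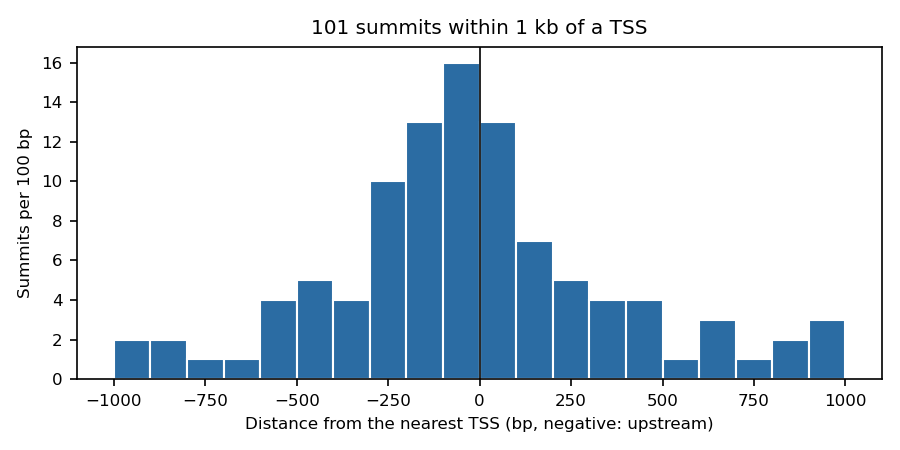
Number of summits (vertical axis, per 100 bp) by distance from the nearest TSS (horizontal axis, bp, upstream negative) for the 101 summits within 1 kb of a TSS of the 99 genes. They gather around the TSS, with 29 (28.7%) within 100 bp of it, against 33.0% over all genes.

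The counts by role are set beside the 46.8% of all genes with a promoter summit and the 24.5% with one of a score of at least 10. All 14 cyclins and CDKs of transcription had one, with a median highest score of 21.3, and 12 of the 14 reached a score of 10. The 14 cyclins and CDKs of the cell cycle had one at 10 genes, with a median of 11.2, and 6 reached a score of 10. The E2f genes had one at 8 of 8, with a median of 6.02, and 2 reached a score of 10. These are counts over small sets of genes and no test was made between roles.

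**Figure D3:**
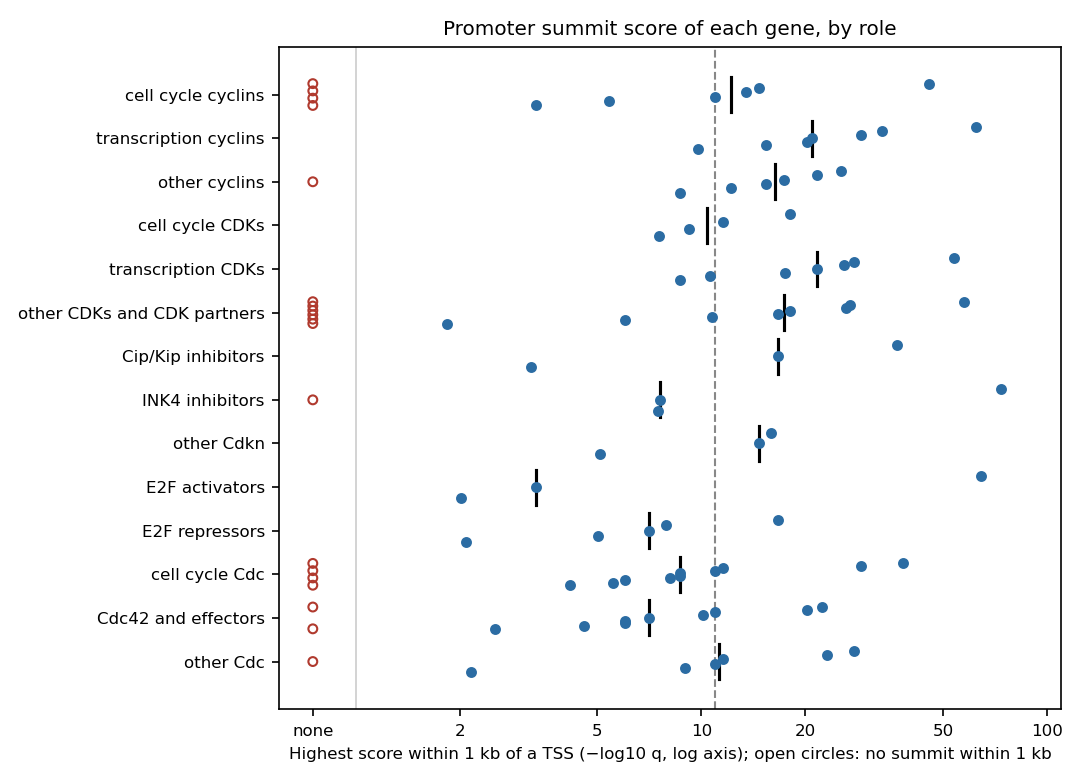
Highest score within 1 kb of a TSS (horizontal axis, −log10 q, log axis) for each of the 99 genes, by role. Each filled point is a gene, black bars are medians over genes with a summit, open circles are the 19 genes with no summit within 1 kb, and the dashed line is the median of 10.9 over all genes. Transcription cyclins and CDKs lie mostly to the right of the dashed line and have no open circles.

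Among cell cycle cyclins, 6 of 10 (60%) had a promoter summit, near the 46.8% over all genes for a set of this size. Cyclin A acts in S phase and G2, and its somatic gene Ccna2 had a score of 45.5 in its 5′ UTR exon 2, with the summit 945 bp into the gene (chr3:36572093), while the germline gene Ccna1 had no summit within 50 kb. Cyclin B is the mitotic partner of CDK1. Its gene Ccnb1 had a weak summit of 3.32 at 230 bp upstream, and Ccnb2 had none within 50 kb. Cyclin E drives entry into S phase, and both of its genes had a promoter summit. Ccne1 reached 10.9 at 447 bp upstream, and Ccne2 reached 5.39 at 207 bp upstream. Ccnf, whose product is a substrate receptor of a ubiquitin ligase, had a summit of 13.4 at 64 bp upstream.

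D-type cyclins, which bind CDK4 and CDK6 in response to growth signals, were not alike. Ccnd1 had no summit within 1 kb. The nearest, at 2028 bp downstream in intron 2, scored 2.92, and its 8 summits within 50 kb included 1 of 10.9 at 11793 bp from the TSS, past the gene's end, and 1 of 14.2 at the promoter of LTO1. Ccnd2 also had none within 1 kb, and 2 weak summits lay just outside, of 2.53 at 1146 bp upstream and of 2.15 at 1469 bp downstream in intron 1. The remaining summit within 50 kb, of 10.4, was at the promoter of Tigar. Ccnd3 had 15 summits within 50 kb and 10 in its gene body, and it is longer than Ccnd1 and Ccnd2 and has 2 TSSs far apart, so that more of the genome was searched for it. At Ccnd3 the upstream TSS had a summit of 6.02 at 31 bp downstream, the internal TSS had 14.7 at 77 bp downstream, and the strongest summit of the locus, of 33.7, lay in intron 1 at 6276 bp from the upstream TSS.

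All 4 CDKs of the cell cycle had a single promoter summit. Cdk4 scored 18.1 at 87 bp downstream of the TSS, Cdk6 11.5 at 626 bp, Cdk2 9.21 at 278 bp and Cdk1 7.53 at 166 bp. Cdk1, the kinase of mitosis, had the lowest score of the 4, and the genes of its cyclin partners ranged from no summit (Ccnb2) and 3.32 (Ccnb1) to 45.5 (Ccna2). Ccnb1 and the transcription kinase gene Cdk7 are neighbours on chromosome 13, with TSSs 55544 bp apart and 2 summits within 50 kb of both.

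Transcription cyclins and CDKs ranged from 8.65 to 62.5 in their highest promoter score. Ccnk, the cyclin of CDK12 and CDK13, had a score of 62.5 at 232 bp upstream (chr12:108179506), a summit that also lay within 1 kb of the TSS of Setd3. Its partners Cdk13 and Cdk12 had 53.8 at 431 bp upstream and 17.4 at 336 bp upstream. The cyclins of P-TEFb, the kinase that releases paused RNA polymerase II, had 33.3 (Ccnt1) and 20.9 (Ccnt2), and their kinase Cdk9 had 25.9. The kinase pair of Mediator had 15.4 (Ccnc), 8.65 (Cdk8) and 27.7 (Cdk19). The CDK-activating kinase of TFIIH had 9.78 (Ccnh) and 10.6 (Cdk7). The splicing-linked genes Ccnl1, Ccnl2 and Cdk11b had 20.2, 28.9 and 21.6.

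The remaining cyclins had a promoter summit at 6 of 7 genes. Ccng2, whose product is linked to growth arrest, scored 25.4, and its neighbour Ccni scored 17.4. The other values were 21.6 for Ccng1, 15.4 for Ccny, 12.2 for Ccno and 8.65 for Ccnj. Ccnq had no summit within 50 kb, and Cdk10, whose product binds cyclin Q (also called cyclin M), had none within 5 kb and 14 within 50 kb.

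Among the other CDKs and their partners, 8 of 14 (57.1%) had a promoter summit, near the 46.8% over all genes. Cdk5, a kinase best known from neurons, scored 57.6 at 149 bp upstream (chr5:24423713). Its activators p35 and p39 had 1.83 (Cdk5r1) and no promoter summit (Cdk5r2, whose only summit within 50 kb scored 3.32 at 37784 bp upstream). The binding-protein genes Cdk5rap2 and Cdk5rap3 had 10.7 and 18.1, and Cdk5rap1, which encodes an enzyme that modifies mitochondrial tRNA, had none, with its nearest summit of 11.5 at 2270 bp upstream. Cdk2ap2 had 26.9 and Cdk2ap1 had none, with 8.65 at 3198 bp downstream in intron 1. Cdk20 had 26.3, Cdk17 16.7 and Cdk14 6.02, and Cdk15 and Cdk18 had none. The summit of Cdk14 was at its upstream TSS, and the nearest to its internal TSS was at 77447 bp. At Cdk18 the nearest summit, of 9.14, was in intron 1 at 8247 bp.

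Promoter summits of the CDK inhibitors ranged from 3.20 to 73.6. Cdkn2d, which encodes p19INK4d, had the highest score of all 99 genes, 73.6 at 191 bp upstream (chr9:21291400), which ranked 166 in the whole list. The other INK4 genes were lower. Cdkn2c had 7.47 at 301 bp upstream and Cdkn2b had 7.58 at 334 bp downstream in its coding exon. Cdkn2a, which encodes p16INK4a and p19ARF, had no summit near either TSS, and its nearest, 16079 bp upstream, was that same summit of Cdkn2b.

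The Cip/Kip genes spanned a wide range. Cdkn1a, which encodes the p53 target p21, had 36.7 (chr17:29094706) at 937 bp downstream of 1 TSS and 3727 bp downstream of the other, in intron 1. Around it lay 15 further summits within 50 kb, of 2.54 to 20.5, none within 1 kb of the TSS of another gene. Cdkn1b, which encodes p27, had 16.7 at 19 bp upstream and 5.07 at 962 bp downstream. Cdkn1c, which encodes p57 and is expressed from the maternal allele, had 3.20 at 336 bp downstream and 4.04 at 1298 bp downstream. Of the other Cdkn genes, Cdkn2aip had 15.9, Cdkn3 14.7 and Cdkn2aipnl 5.07.

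**Figure D4:**
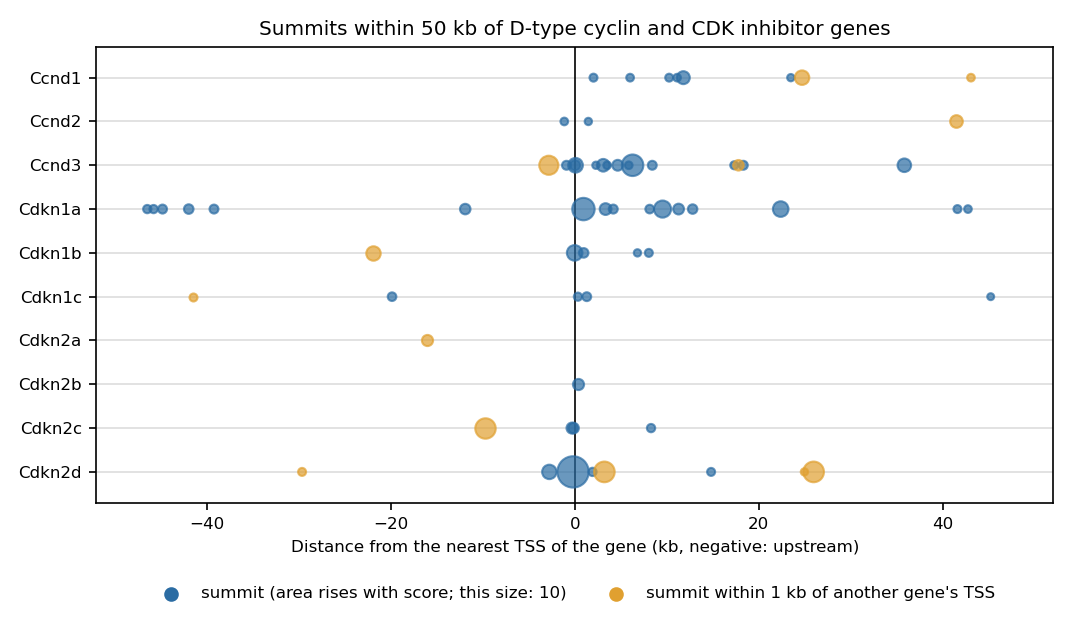
Summits within 50 kb of the 3 D-type cyclin genes and the 7 Cip/Kip and INK4 genes, by distance from the nearest TSS of the gene (horizontal axis, kb, upstream negative). Each point is a summit whose area rises with its score, and orange points lie within 1 kb of the TSS of another gene. Ccnd1, Ccnd2 and Cdkn2a have no point at the TSS, Cdkn2d has the largest, and Cdkn1a has 15 further blue points on both sides.

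All 8 E2f genes had a promoter summit, and 2 of them (E2f3 and E2f5) reached a score of 10. Among the activators, which turn on genes of S phase, E2f3 stood at 64.4 at 246 bp upstream (chr13:29986309), while E2f1 had 3.32 at 517 bp upstream and 2.15 at 172 bp downstream. E2f2 passed only at its internal TSS, with 2.01 at 445 bp upstream, since the nearest summit to its upstream TSS lay at 1042 bp, just outside the window. The strong summit of E2f3 belonged to its upstream TSS, and the nearest summit to its internal TSS was at 1091 bp. Among the repressors, E2f5 had 16.7, E2f8 7.91, E2f4 7.05, E2f7 5.001 and E2f6 2.09.

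Cdc genes of the cell cycle had a promoter summit at 10 of 14. The strongest were Cdc34, a ubiquitin-conjugating enzyme, with 38.4, and Cdc26, a subunit of the anaphase-promoting complex, with 28.9 at a position also within 1 kb of the TSS of Prpf4. Of the other subunits of that complex, Cdc27 had 11.5, Cdc16 8.12 and Cdc23 none, its only summit within 50 kb being 10.9 at the promoters of Brd8 and Kif20a. Its mitotic activator Cdc20 had none within 5 kb. The Cdc25 phosphatases, which activate CDKs, had 5.55 (Cdc25a), 6.02 (Cdc25c) and none within 5 kb (Cdc25b), though Cdc25b had 19 within 50 kb. In DNA replication, Cdc45 had 10.9 and Cdc7 8.65, while Cdc6, the loader of the replicative helicase, had none and its nearest, of 8.65, was in intron 9 at 10331 bp. Cdc14b had 8.65 at its internal TSS only, and this summit was also the nearest to its upstream TSS, at 26251 bp. Cdc14a had 4.16 at exactly 1000 bp from 1 of its 4 TSSs, at the edge of the window.

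Cdc42, a small GTPase of the cytoskeleton, and its effectors do not drive the cell cycle. Cdc42 itself had no promoter summit, and its nearest, of 16.0, lay 31070 bp upstream. Its effectors had one at 9 of 10 genes, from 2.53 at Cdc42ep5 to 22.4 at Cdc42bpb. Between them lay Cdc42bpg at 4.56, Cdc42ep1 and Cdc42se1 at 6.02, Cdc42ep3 at 7.05, Cdc42ep4 at 10.1, Cdc42se2 at 10.9 and Cdc42ep2 at 20.2, and Cdc42bpa had no summit within 50 kb. Among the rest, Cdc5l and Cdc40, which encode splicing factors, had 27.6 and 11.5. The chaperone genes Cdc37 and Cdc37l1 had 8.97 and 23.1, Cdc123 had 10.9, Cdc73 had 2.15 and Cdc20b had none, its only summit within 50 kb being that of its neighbour Ccno.

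Counts within 50 kb tended to be higher at genes with more neighbouring genes, though not at every gene. Neighbours are genes with a TSS within 50 kb, and Cdkn1a had 16 summits with 1 neighbour. Cdc42bpg had the most summits, 38, followed by Cdk5 and Cdk9 with 23 each and Cdc42ep1 and Cdc42ep2 with 22 each. The 47 genes with more neighbours than the median had a median of 7 summits within 50 kb, against 2 for the 52 others, while promoter summits were present at 38 and 42 of them. Of 486 pairs of gene and summit from 1 kb to 50 kb apart, 131 (27.0%) involved a summit at the promoter of another gene. Since a summit is not tied to a target, these counts describe the neighbourhood and not the regulation of a gene.

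A further list held 60 genes of the cell cycle and of the complexes that work with the transcription CDKs (Med12, Med13, Hexim1 and Larp7). Of the 60 listed, 59 are autosomal, and 47 of them (79.7%) had a promoter summit, against the 46.8% over all genes. The highest were Lin52 of the DREAM complex (84.1), the checkpoint gene Mad2l1 (58.6), Larp7 (53.8), which encodes a partner of the RNA that restrains P-TEFb, and the CDK1 inhibitory kinase Wee1 (49.1). None was listed for Rb1, Tfdp1, Lin9, Lin54, Chek1, Plk1, Bub1, Mki67, Top2a, Mdm2, Fbxw7 or Mnat1.

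Promoter sequences of the RefSeq table (GRCm38.p6, the build of the summits, from 250 bases upstream to 50 downstream of a TSS) were found for 83 of the 99 genes, in 97 windows. The 16 without an entry were Ccna2, Ccnd1, Ccnd2, Ccne2, Ccnh, Ccny, Cdc23, Cdc25c, Cdc42bpg, Cdk17, Cdk19, Cdk5, Cdk5r1, Cdkn1c, E2f4 and E2f5. A search for 6 short patterns on both strands gave the shares below, each beside the share in all 19336 windows of the table.

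The E2F pattern (TTTCCCGC, TTTCGCGC, TTTGCCGC or TTTGGCGC) was in 9 windows (9.28%, against 2.89%), those of Cdc25a, Cdc42bpa, Cdc6, Cdk1, Cdk2, Cdkn2a, E2f2, E2f3 and E2f7. CHR, the element bound by the DREAM complex at genes of G2 and M phase (TTTGAA), was in 22 (22.7%, against 15.2%). CCAAT, bound by NF-Y, was in 44 (45.4%, against 38.0%), and the GC box (GGGCGG) was in 72 (74.2%, against 48.1%). The E-box CACGTG was in 8 (8.25%, against 8.06%), and CRE (TGACGTCA), the element of cyclic AMP signalling that cold activates in BAT, in 5 (5.15%, against 2.35%). Median GC content was 62.3%, against 57.0% over all windows, and the part of base composition in these shares was not tested. A GC box can overlap an E2F pattern by the bases they share, and a match is only a match of letters.

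Patterns were found with and without summits. Of the 79 windows of genes with a promoter summit, 6 held an E2F pattern and 18 a CHR, and of the 18 windows of genes without one, 3 and 4. Below are the 200 bases upstream of the TSS, 5′ to 3′ on the strand of the gene, with CHR, CCAAT and E2F patterns in capitals on either strand, for 4 genes with a summit within 250 bp of the TSS and for Ccnb2 and Cdc20, which had none and were chosen as a contrast after their values were seen.
Cdk1 (chr10:69352913-69353112, GRCm38, minus strand): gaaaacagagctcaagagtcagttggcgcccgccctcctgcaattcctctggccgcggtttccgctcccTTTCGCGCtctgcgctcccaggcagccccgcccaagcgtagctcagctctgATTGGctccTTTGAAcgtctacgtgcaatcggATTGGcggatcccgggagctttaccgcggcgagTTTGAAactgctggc
Ccnb1 (chr13:100786487-100786686, GRCm38, minus strand): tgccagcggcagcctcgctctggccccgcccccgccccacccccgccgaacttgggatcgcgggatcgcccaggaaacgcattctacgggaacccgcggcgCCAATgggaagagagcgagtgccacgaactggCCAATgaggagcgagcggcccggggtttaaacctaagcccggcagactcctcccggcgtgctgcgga
Ccnf (chr17:24251410-24251609, GRCm38, minus strand): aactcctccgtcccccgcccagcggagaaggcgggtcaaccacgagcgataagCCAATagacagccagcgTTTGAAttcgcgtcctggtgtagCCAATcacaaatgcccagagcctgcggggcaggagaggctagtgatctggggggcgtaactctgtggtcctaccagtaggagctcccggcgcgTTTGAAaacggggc
E2f7 (chr10:110745239-110745438, GRCm38, plus strand): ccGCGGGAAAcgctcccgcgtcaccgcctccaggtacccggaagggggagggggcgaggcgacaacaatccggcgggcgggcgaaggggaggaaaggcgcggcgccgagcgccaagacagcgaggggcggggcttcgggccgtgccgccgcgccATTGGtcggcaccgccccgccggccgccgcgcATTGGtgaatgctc
Ccnb2 (chr9:70421555-70421754, GRCm38, minus strand): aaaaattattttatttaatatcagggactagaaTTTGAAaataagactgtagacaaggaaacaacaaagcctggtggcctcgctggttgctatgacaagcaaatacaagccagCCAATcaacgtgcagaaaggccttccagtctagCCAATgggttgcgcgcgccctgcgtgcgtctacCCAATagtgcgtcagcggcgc
Cdc20 (chr4:118437344-118437543, GRCm38, minus strand): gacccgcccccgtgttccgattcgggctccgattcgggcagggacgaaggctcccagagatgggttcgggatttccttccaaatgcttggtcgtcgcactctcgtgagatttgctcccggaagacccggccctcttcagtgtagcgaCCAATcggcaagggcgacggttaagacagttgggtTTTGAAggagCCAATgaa

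Cdk1 held an E2F pattern at 131 bases upstream and CHRs at 71 and 15 upstream, and its summit scored 7.53. Ccnb2 and Cdc20 carried the same kinds of element, CCAAT and CHR, with no summit within 1 kb. Ccnb1 held CCAAT but no TTTGAA in the window, and E2f7 held an E2F pattern at 198 bases upstream with a summit of 5.001 at 19 bp downstream.

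A second pair is shown for other elements. Cdk4 held the E-box CACGTG 4 times, at 172, 118, 98 and 11 bases upstream, more than any other of the 83 genes with an entry, and Cdc5l held a CRE at 94 bases upstream. E-boxes (Cdk4) and the CRE (Cdc5l) are in capitals.
Cdk4 (chr10:127063335-127063534, GRCm38, plus strand): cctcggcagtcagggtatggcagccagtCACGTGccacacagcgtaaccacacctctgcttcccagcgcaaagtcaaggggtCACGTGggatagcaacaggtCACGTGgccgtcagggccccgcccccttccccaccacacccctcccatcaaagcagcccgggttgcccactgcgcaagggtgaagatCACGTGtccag
Cdc5l (chr17:45433708-45433907, GRCm38, minus strand): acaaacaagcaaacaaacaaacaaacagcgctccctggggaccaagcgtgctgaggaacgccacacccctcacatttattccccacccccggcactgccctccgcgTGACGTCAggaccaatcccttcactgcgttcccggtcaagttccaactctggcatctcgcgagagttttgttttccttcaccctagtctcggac

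The summit of Cdk4 scored 18.1, and that of Cdc5l scored 27.6 at 6 bp upstream. Whether these patterns go with the scores was not tested.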

How the data were processed

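Nuclei from BAT were used for ATAC-seq, with 2 mice of each genotype processed separately. The RNA-seq data of the series were not analysed here. Per the study's methods and the submitters' processing notes, reads were trimmed with cutadapt 1.2.1, aligned with BWA (Partek Flow, mm10) and searched for peaks with MACS2 2.1.1 in ATAC mode at a q-value of 0.05 and a fold enrichment of 2.0. The deposited score is the authors' −log10 q-value, which starts near 1.30. The name of the list sets WT libraries against Dot1l-BKO ones, and the role of the Dot1l-BKO reads in the calling is not given in the sources used here, nor is the shift of reads for the transposase.

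From this list, summits were counted within 1 kb, 5 kb and 50 kb of a TSS and from the start to the end of each gene, using curated mRNAs of RefSeq GRCm38.p6, the build of the files. A gene with several TSSs took the nearest. Python 3.11.15, numpy 2.4.6, pandas 2.3.3 and scipy 1.17.1 were used. No test was run, since the list has no replicates, and shares are set beside those of all autosomal genes.

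The genes and lists were chosen with earlier results of these data known. Named with values are whole paralog sets, the 10 highest promoter scores, every gene with no promoter summit and the 5 with most summits within 50 kb. The remaining genes of each role are given for completeness. Sequences are of promoters that hold a pattern described, with a summit within 250 bp of the TSS, except for Ccnb2 and Cdc20, which have no such summit. All printed windows lie outside annotated exons of mRNAs. Score minimums, merging of summits, other windows, other symbols and predicted mRNAs were tried as alternatives.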

Additional observations from a re-analysis of the deposited data

How the results depend on the processing

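Of 40 recomputed values, 35 stayed within 1.5 times the reported count, or within the interval of the reported median. The other 5 came from raising the minimum score to 10, which lists fewer summits by construction. Promoter summits were then found at 48 genes (48.5%, against 24.5% of all genes), summits within 5 kb at 50 (50.5%, against 27.4%) and in the gene body at 18 (18.2%, against 14.3%, a narrower gap than without the minimum). The median highest promoter score was 19.1 and the median number within 50 kb was 1, against 0 over all genes. With a window of 500 bp the promoter count was 72 (72.7%, against 42.9% of all genes), and with 1 kb upstream to 100 bp downstream it was 66 (66.7%, against 36.4%). The exact symbols alone gave 62 of 77 genes. No paired analysis was possible because values per library were not analysed here, and for the same reason no library could be left out.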
